A study of Mus musculus with 42 samples.

Results

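The suppressors of cytokine signalling are a family of 8 genes, Socs1 to Socs7 and Cish, and all 8 were represented on the oligonucleotide arrays used here to profile mouse spleen. Members were chosen by symbol alone: array features whose annotation gave the symbol of a family member and no other, averaged per symbol. This gave 13 features of the 30601 on the array and 8 genes of 15277. Socs2, Socs3 and Cish had 1 feature each and the other members 2. Female BALB/c mice were left untreated (6 arrays) or received 400 µg of oligodeoxynucleotide (ODN) into the peritoneum. Treated mice received either a mixture of the stimulatory CpG ODN 1555 and 1466 or a mixture of the control ODN 1612 and 1471, each in equimolar amounts. Spleens were taken 3, 9, 24 and 72 h and 5, 7, 9 and 14 days after CpG ODN, and 3 h after control ODN, with 4 arrays per group. Each mouse carried no engineered allele that the labels name, its age is not stated, and control ODN was sampled only at 3 h, so the later CpG times have untreated spleens as their only reference. Values are log2 ratios of spleen RNA over a universal mouse reference RNA, which is a mixture from several cell types. A level of 0 therefore means the same signal as in that mixture, and levels of different genes cannot be ranked against each other.

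SOCS proteins are intracellular inhibitors of cytokine receptors that signal through Janus kinases (JAKs) and the STAT transcription factors. Each has an SH2 domain, which binds phosphotyrosine on receptors or kinases, and a carboxy-terminal SOCS box, which recruits elongins and a cullin to form a ubiquitin ligase. Because several SOCS genes are themselves STAT targets, the proteins act as a negative feedback loop: cytokine induces its own brake. SOCS1 and SOCS3 also carry a kinase inhibitory region that blocks JAKs directly. CpG ODN are ligands of the endosomal receptor TLR9, carried by B cells and plasmacytoid and other dendritic cells in the mouse spleen, and lead to secretion of cytokines, among them interferons and interleukins that signal through JAKs.

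The arrays held spleen RNA by their defining markers. In untreated spleens the B cell gene Cd79a was at 5.64 ± 0.55, the T cell gene Cd3e at 1.11 ± 0.24 and the red cell gene Hbb-b1 at 6.83 ± 0.78 (mean ± SD, n = 6). The pancreatic protease gene Prss2 was also high, at 4.95 ± 2.39, and the mean level of 8 pancreas acinar genes ran from 0.57 to 5.52 among untreated arrays and from 0.34 to 1.21 at 14 days. None of the 9 tested acinar genes was called by limma in any of the 14 comparisons, and 3 had an unadjusted p below 0.05 at 14 days, against 0 in each other comparison. The part of this tissue in the results was not tested. The arrays had 173 to 1740 features without a value. Their database numbers fell into 10 runs of neighbouring numbers. Control ODN, 72 h, 7 days and 14 days lay in 1 run of 16 arrays that held no untreated spleen, and CpG 5 and 9 days shared no run with untreated spleens either, so for these groups run and treatment cannot be told apart. CpG 3 h shared a run with 1 untreated array, and all 9 h and most 24 h arrays shared a run with CpG 3 h arrays. The series describes its arrays as independent biological replicates.

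The family divided by its response. Socs3 and Socs1 rose steeply at 3 h and fell back over days, Socs2 was called higher at 9 h only and lower at 5 days, Cish was lower than in untreated spleens at 7 days, and Socs4 was higher at 5 days. Socs6 and Socs7 were called in none of 14 comparisons by limma, with 2 and 0 unadjusted p-values below 0.05. Of 110 member and comparison pairs that could be tested, 23 passed (limma, adjusted p below 0.05 over all genes). At 3 h after CpG ODN 2 of 8 members passed, where 11.6% of all 15253 genes did. The corresponding counts were 3 of 8 at 9 h against 8.52% of genes, 2 at 24 h against 10.9%, 1 at 72 h against 15.0%, 3 at 5 days against 30.9%, 1 at 7 days against 15.6%, 0 at 9 days against 13.5% and 1 of 7 at 14 days against 4.54%. The share of members was thus above the share of genes at 3, 9 and 24 h and at 14 days, and close to or below it from 72 h to 9 days. With 7 or 8 members tested, each share rests on at most 3 called genes, and with the run as a fixed block 0 were called at 24 h. At 9 days limma called none, and Socs6 alone reached an unadjusted p below 0.05 (difference -0.29 ± 0.14). A joint F test of the 8 CpG times against untreated spleens called Socs1, Socs2, Socs4 and Cish, 4 of 7 members tested against 63.5% of genes. It asks whether a gene differs from untreated spleens at any CpG time. Socs3 was outside this test because 14 days had a value on 2 arrays only.

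**Figure D1:**
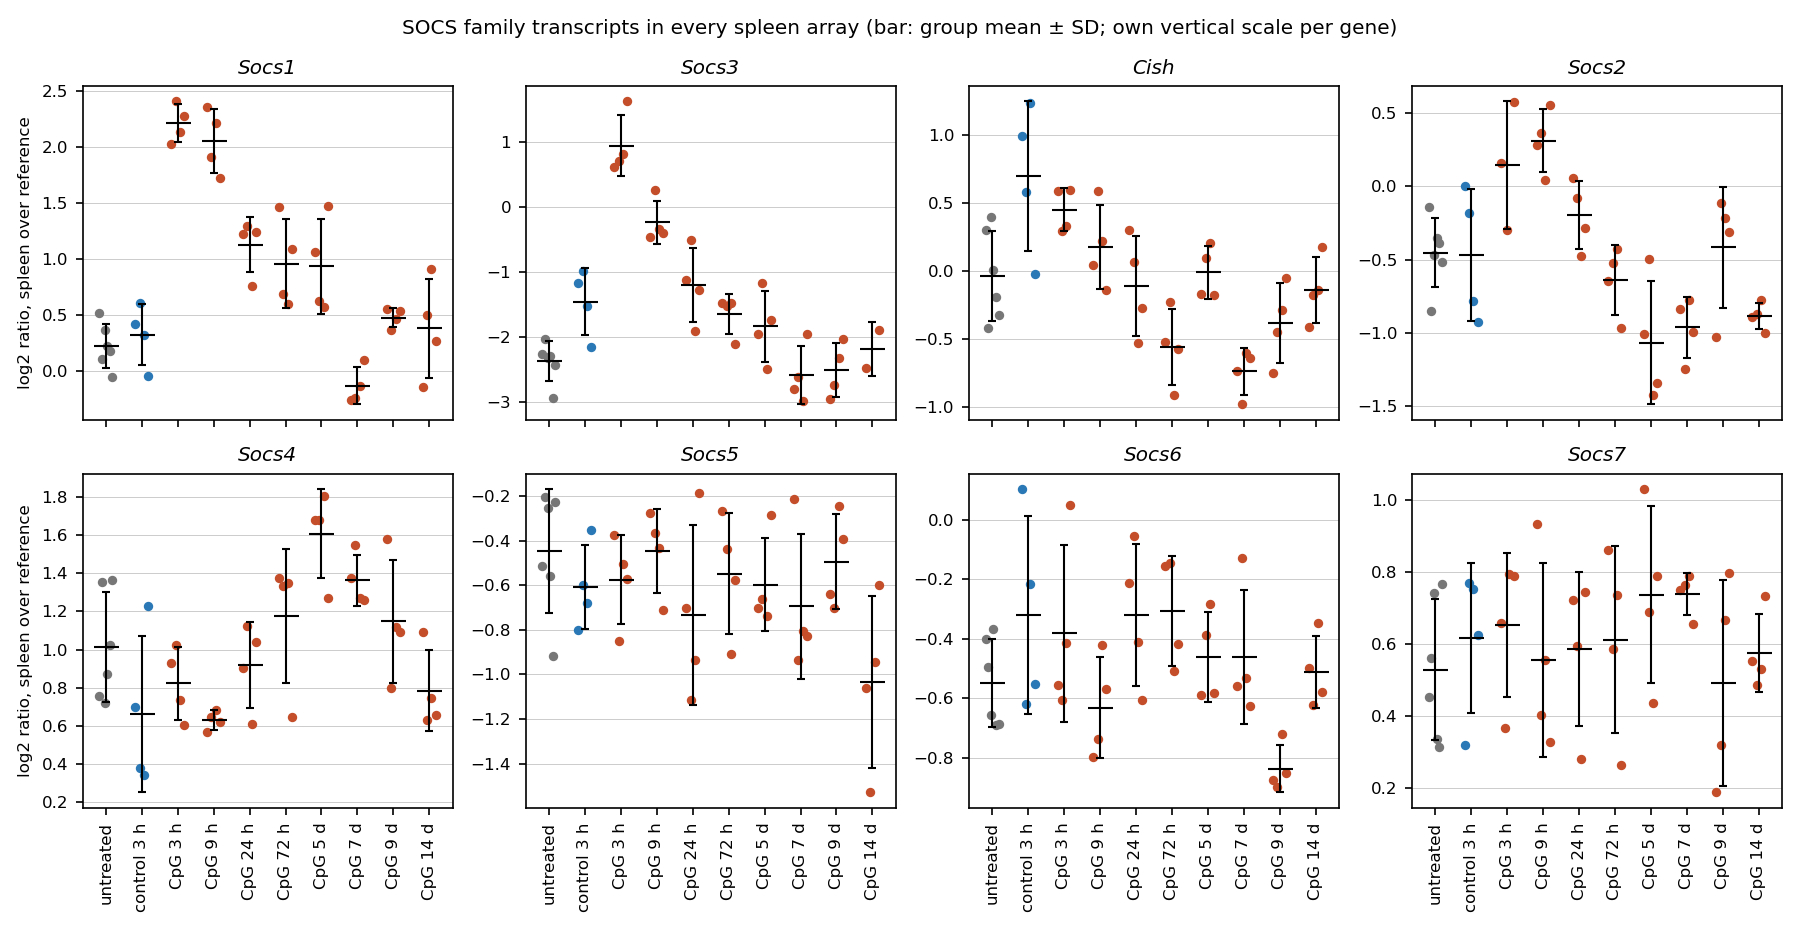
Log2 ratio of spleen over reference for each of the 8 members on every array, by group, with the group mean and SD as a bar; the vertical scale differs between genes. The 3 h CpG arrays of Socs1 (2.03 to 2.41) and Socs3 (0.62 to 1.63) lie above every untreated array, while those of Socs5, Socs6 and Socs7 lie among them.

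Socs3 feeds back on the receptors that use gp130, such as those for interleukin-6, and on the G-CSF receptor. The gene lies on chromosome 11, at chr11:117966079-117970336 (GRCm38.p6, RefSeq). In untreated spleens its log2 ratio ran from -2.94 to -2.03 with a median of -2.31. At 3 h after CpG ODN the arrays read 0.82, 1.63, 0.62 and 0.71, all above every untreated array, and the rise of 3.32 ± 0.27 (± SE, adjusted p = 2.4e-12) was a 10.0-fold difference. At 9 h the values were -0.46, 0.26, -0.34 and -0.40, which was 2.14 ± 0.27 above untreated spleens (4.42-fold, adjusted p = 1.52e-07). The level had fallen between these times, by 1.18 ± 0.29 (adjusted p = 0.0264, where 1.44% of genes changed), and no 9 h array reached a 3 h array. At 24 h the values were -1.29, -1.12, -0.51 and -1.91, again lower than at 9 h, with a difference of -0.97 ± 0.29 (adjusted p = 0.03, 9.70% of genes called) and still 1.17 ± 0.27 above untreated spleens (adjusted p = 0.00269). At 72 h the arrays read -1.49, -1.52, -1.47 and -2.11, and the difference of 0.73 ± 0.27 from untreated spleens was not called (adjusted p = 0.0566). Without CpG 72 h replicate 4 (0.89, adjusted p = 0.0264) or untreated replicate 1 (0.80, adjusted p = 0.0467) that difference passed, and over all 22 alternatives its adjusted p ran from 0.00133 to 0.159. From 72 h on the CpG arrays overlapped the untreated ones, at 72 h through replicate 4. The later means were -1.84 at 5 days (0.54 ± 0.27 above untreated, called only without CpG 5 day replicate 4 or with quantile normalization, at 0.75 and 0.76), -2.59 at 7 days and -2.51 at 9 days, and the values at 14 days were -2.48 and -1.89.

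The 3 h rise of Socs3 stood with each array left out in turn and with the run fitted as a block (3.09, adjusted p = 0.000744, the largest over its 23 alternatives). In the run that held both groups, the untreated array read -2.43 and the CpG 3 h arrays 0.62 and 0.71. With the run as a block the differences at 9 h (1.63, adjusted p = 0.34) and 24 h (0.69, adjusted p = 0.686) were no longer called; over the other alternatives both kept their calls, with adjusted p-values down to 1.89e-08 and 0.00056. The step from 3 to 9 h lost its call without CpG 3 h replicate 2 (-0.95, adjusted p = 0.154) or without CpG 9 h replicate 1, 3 or 4 (-1.10 to -1.15, adjusted p from 0.0617 to 0.0875), and the step from 9 to 24 h without CpG 9 h replicate 2 or 4 or CpG 24 h replicate 1, 2 or 4 (-1.03 to -0.74, adjusted p from 0.0502 to 0.0966). With the run as a fixed block neither step was called (-1.46, adjusted p = 0.0852, and -0.94, adjusted p = 0.07), and over all alternatives the adjusted p ran from 0.00319 to 0.154 for the first step and from 0.0194 to 0.113 for the second.

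Socs1 is the main brake on interferon signalling and binds JAKs through its kinase inhibitory region. It lies at chr16:10783808-10785536 (GRCm38.p6). Untreated arrays ran from -0.06 to 0.52 with a median of 0.20. At 3 h the CpG arrays read 2.13, 2.28, 2.03 and 2.41, a rise of 1.99 ± 0.18 (3.97-fold, adjusted p = 4.6e-11). At 9 h they read 2.35, 1.91, 2.21 and 1.72, still 1.83 ± 0.18 above untreated spleens (adjusted p = 6.44e-10). Unlike in Socs3, the step from 3 to 9 h in Socs1 was not called (-0.16 ± 0.20, 95% interval -0.57 to 0.24), though the difference between both genes in this step was not tested. By 24 h the values were 1.24, 1.22, 1.29 and 0.76, below every 9 h array, with a fall of 0.92 ± 0.20 from 9 h on the log2 scale (adjusted p = 0.00312). Socs1 then stayed above untreated spleens for longer than any other member was called. It was 0.91 ± 0.18 higher at 24 h, 0.74 ± 0.18 higher at 72 h (adjusted p = 0.00591) and 0.71 ± 0.18 higher at 5 days (adjusted p = 0.0029), and at each of these times the lowest CpG array was above the highest untreated array. The calls at 72 h and 5 days, and that of the fall from 9 to 24 h, rest on 1 of its 2 features. Tested alone by limma, feature 2 was higher at 72 h (0.91 ± 0.25, adjusted p = 0.0137) and 5 days (0.85 ± 0.25, adjusted p = 0.00898). Feature 1 was not called at 72 h (0.56 ± 0.23, adjusted p = 0.107) or 5 days (0.66 ± 0.26, adjusted p = 0.0542). From 9 to 24 h feature 2 was called (-1.15 ± 0.27, adjusted p = 0.00702) and feature 1 was not (-0.68 ± 0.26, adjusted p = 0.0924). In a limma fit of the 2 groups alone the fall of the gene lost its call (adjusted p = 0.0506).

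Between 72 h and 7 days, 2 times whose arrays lay in the same run, Socs1 fell by 1.09 ± 0.20 (adjusted p = 0.000529), while 3.66% of genes changed. The 72 h arrays read 1.46, 0.68, 0.60 and 1.09 and the 7 day arrays -0.26, -0.24, -0.14 and 0.10, without overlap. This step kept its call with each of the 8 arrays left out in turn. Feature 1 had a value on 2 arrays only at 7 days and was not tested alone, so the other 7 day values come from feature 2. Tested alone by limma, feature 2 differed by -1.29 ± 0.27 (adjusted p = 0.00362). Natural killer cell genes were lower in the same step, 6 of 9 with 0 higher and a median difference of -1.13, after 4 of 9 had been higher than in untreated spleens at 72 h. The mean of the monocyte and macrophage list was also lower, at 1.40 to 1.63 on the 7 day arrays against 1.85 to 2.10 at 72 h. At 5 days the mean of the natural killer list was 3.09, as in untreated spleens, while Socs1 was at 0.93. The part of these cell types in the fall of Socs1 was not tested. At 7 days Socs1 was not distinguishable from untreated spleens (-0.36 ± 0.18, adjusted p = 0.193), nor at 9 days (0.25 ± 0.18) or 14 days (0.16 ± 0.18). The rises at 3 and 9 h kept their calls with the run as a block, and the one at 24 h did not (1.16, adjusted p = 0.201, with a range from 0.00032 to 0.201 over its 25 alternatives). Some myeloid genes were higher on the same 3 h arrays: 4 of 13 neutrophil and 3 of 11 monocyte and macrophage genes were called higher and 0 lower, where 7.70% of all genes were higher, and the list medians were 0.07 and 0.09. Of 9 dendritic cell genes 2 were higher and 3 lower, and the mean of their list ran from 1.79 to 2.10 against 1.39 to 1.55 on untreated arrays. The mean of the monocyte list ran from 1.74 to 2.00 on them against 0.96 to 1.57 on untreated arrays, and the part of these cell types in the Socs1 and Socs3 values was not tested. The paired features of Socs1 moved together, with a correlation of 0.802 over the 33 arrays on which both had a value, as a description of arrays that share groups.

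**Figure D2:**
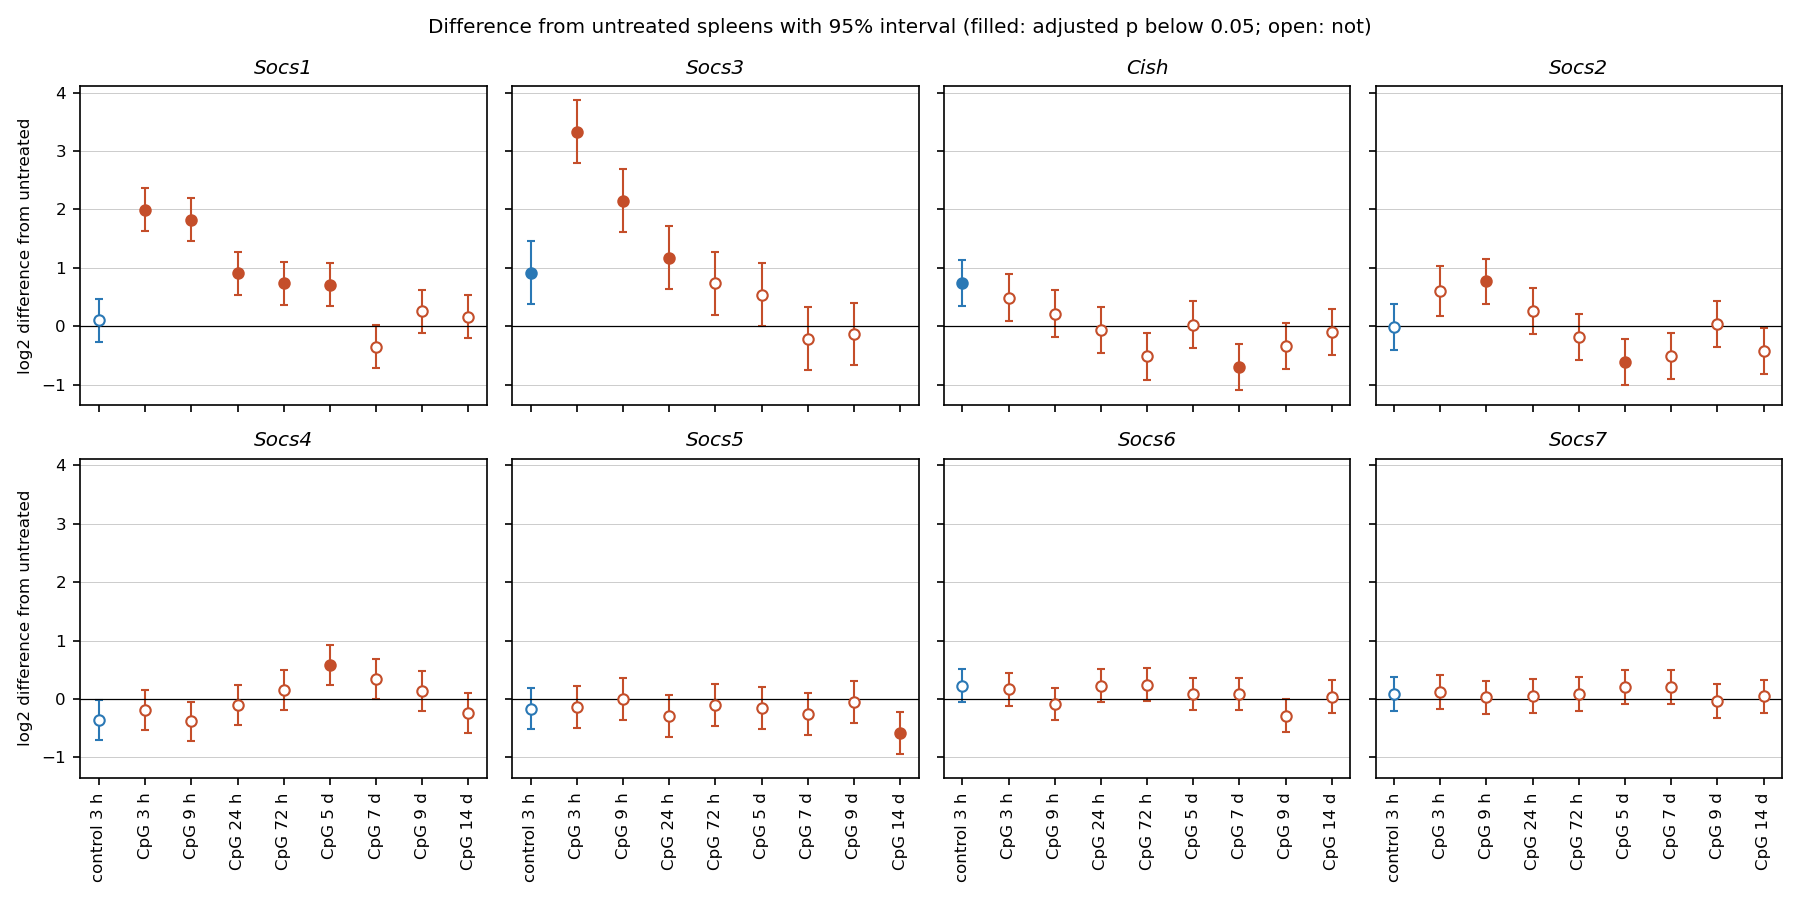
Difference of each member from untreated spleens on the log2 scale, with its 95% interval from the fit, for control ODN at 3 h (blue) and the 8 CpG times (red). Filled points passed at an adjusted p below 0.05; Socs3 starts at 3.32 at 3 h and Socs1 at 1.99, and the 14 day point of Socs3 was not tested.

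Promoter windows of the members were searched for elements of 2 kinds, and whether the elements differ between members was not tested. Windows of 300 bases, from 250 before to 50 after a transcription start, were taken from RefSeq (GRCm38.p6) and were found for 4 members: Socs1, Socs3, Socs4 and Cish. They were searched for the STAT element TTCNNNGAA, which reads the same on both strands, and for the interferon response core GAAANNGAA on either strand. The STAT element was in 8.30% of 32851 windows and the interferon response core in 8.56%. In Socs1 the 250 bases before the start (chr16:10785537-10785786, minus strand) held no STAT element and a pair of overlapping interferon response cores, starting 83 and 77 bases before the start; 0.624% of windows held 2 or more. In Socs3 a STAT element began 154 bases before the start used by the table, shown with its flanks (chr11:117969501-117969530, minus strand). That start, and with it this window, lies inside the gene interval given above rather than at its upstream end. The upstream end was not searched. In Cish 2 STAT elements, which 0.457% of windows matched or exceeded, began 0 and 11 bases after the start (chr9:107296659-107296678, plus strand). Neither element was found in the Socs4 window. The sequences are shown because these members were called higher at 3 h, Socs1 and Socs3 after CpG ODN and Cish after control ODN only. That call of Cish was fragile, as described below. Capitals mark the matches, and a match is a run of letters, not evidence that a factor was bound.
Socs1: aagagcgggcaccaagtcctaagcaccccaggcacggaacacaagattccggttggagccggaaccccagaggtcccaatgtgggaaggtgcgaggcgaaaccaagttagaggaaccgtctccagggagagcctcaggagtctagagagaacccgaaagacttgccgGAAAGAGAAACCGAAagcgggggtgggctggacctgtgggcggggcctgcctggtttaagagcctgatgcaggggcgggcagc
Socs3: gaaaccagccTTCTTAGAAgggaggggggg
Cish: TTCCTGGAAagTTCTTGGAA

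The rest of the pathway was described from lists at 3 h, when 7.70% of all genes were called higher and 3.93% lower. Among cytokines upstream of the family 4 of 24 tested were higher and 1 lower, including Il12b (3.67 ± 0.18), Il6 (3.30 ± 0.29), which signals through gp130, and Il15 (1.96 ± 0.17), which signals through STAT5. Receptor chains gave 4 higher and 0 lower of 30, with Osmr, the oncostatin M receptor and a partner of gp130, at 1.96 ± 0.16. Of 10 JAK and STAT genes 7 were higher and 0 lower, led by Stat2 (2.03 ± 0.15), Stat3 (1.06 ± 0.27) and Jak3 (1.04 ± 0.22). Established STAT targets gave 13 higher and 0 lower of 21, with a median difference of 0.78 against -0.02 over all genes; Gbp2, an interferon-induced GTPase, rose by 3.44 ± 0.26 and the chemokine gene Cxcl9 by 3.14 ± 0.36. Some of these genes belong to lists that earlier results on these arrays had already shown, so their direction is not independent support.

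Other brakes on the pathway moved as well. Of 16 inhibitors outside the SOCS family 5 were higher and 1 lower. Usp18, which shuts off the type I interferon receptor, rose by 4.01 ± 0.24, and the phosphatase genes Ptpn1 and Ptpn2 by 1.01 ± 0.27 and 0.83 ± 0.15. Usp18 stayed raised through 7 days (0.79 ± 0.24, adjusted p = 0.022), a time at which no SOCS member was called higher. Among 23 other proteins with a SOCS box 5 were higher and 0 lower, with Spsb1 at 1.45 ± 0.17. The ligase partners of the SOCS box gave 2 of 7 higher: Cul2, a cullin, by 0.58 ± 0.17 and Ube2f, a NEDD8-conjugating enzyme, by 0.46 ± 0.13.

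Control ODN at 3 h was set against untreated spleens to describe changes seen after ODN other than the CpG mixture. Its 4 arrays share no run with untreated spleens, so a change cannot be assigned to the injection rather than to the run. Socs1 was not called: its arrays read 0.42, 0.61, 0.32 and -0.05, and the difference from untreated spleens was 0.10 ± 0.18 (95% interval -0.27 to 0.47). The first of its features had no value on replicates 1 and 2, and on replicate 3 the features read 1.21 and -0.58. Socs3 read -1.17, -0.99, -1.52 and -2.16, of which replicate 4 lay within the untreated range, and was 0.92 ± 0.27 higher than in untreated spleens (adjusted p = 0.0456). Cish read 0.99, 0.58, 1.24 and -0.02 and was 0.74 ± 0.20 higher (adjusted p = 0.035), again with replicate 4 within the untreated range. These 2 of 8 members compare with 3.52% of genes called, 2.45% higher and 1.07% lower. Both calls were fragile. That of Socs3 was lost without control ODN replicate 1, 2 or 3 or untreated replicate 1, 2, 3, 5 or 6 (differences from 0.76 to 0.99, adjusted p from 0.0504 to 0.179). That of Cish was lost without control ODN replicate 1, 2 or 3 or untreated replicate 1, 2, 5 or 6 (0.56 to 0.77, adjusted p from 0.059 to 0.204). With the replicate number as a block they were 0.80 (adjusted p = 0.132) for Socs3 and 0.71 (adjusted p = 0.101) for Cish. Over all alternatives the adjusted p ran from 0.00597 to 0.179 for Socs3 and from 0.00148 to 0.204 for Cish.

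Among the other pathway genes limma called 1 of 30 receptor chains with control ODN, Osmr (0.79 ± 0.16), 1 of 16 other inhibitors, the phosphatase gene Ptpn6 (0.96 ± 0.26), and 1 of 23 other SOCS box genes, Spsb1 (0.56 ± 0.17), with 9, 6 and 8 genes of these lists at an unadjusted p below 0.05. It called 0 of 20 STAT targets, 0 of 10 JAK and STAT genes, 0 of 22 cytokines and 0 of 7 ligase partners, with 6, 3, 7 and 0 at an unadjusted p below 0.05. These shares stand beside the 3.52% of all genes called. Socs4 was not called (-0.35 ± 0.17) but passed without control ODN replicate 4 (-0.54, adjusted p = 0.028). Myeloid and platelet genes were also higher in some control arrays: 3 of 13 neutrophil and granule genes, 4 of 11 monocyte and macrophage genes and 3 of 8 megakaryocyte and platelet genes were called higher and 0 lower. The mean of the neutrophil list ran from 2.28 to 3.62 against 1.78 to 2.50 in untreated spleens. The part of these cells in the Socs3 and Cish values was not tested.

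CpG ODN set directly against control ODN at 3 h again gave Socs3 and Socs1, 2 of 8 members where 20.7% of genes differed. Socs3 was 2.41 ± 0.29 higher with CpG ODN (5.30-fold, adjusted p = 8.21e-08) and Socs1 1.89 ± 0.20 higher (3.70-fold, adjusted p = 2.64e-09), and neither gene's arrays overlapped between the groups. For Cish the means ran the other way, 0.45 with CpG ODN and 0.70 with control ODN, and the difference of -0.25 ± 0.21 was not called (95% interval -0.68 to 0.19). Socs2 lay just outside the threshold, 0.62 ± 0.23 higher with CpG ODN (adjusted p = 0.0506), with 3 CpG arrays. It passed without control ODN replicate 1 (0.77, adjusted p = 0.0224) or 2 (0.71, adjusted p = 0.0372). The same held with each array centred on its median, with quantile normalization, with a trended and robust spread and without arrays with over 1000 missing values. Socs2 was thus called in 6 of 17 alternatives, with adjusted p-values from 0.0224 to 0.167 over all of them. These arrays of CpG and control ODN lie in different runs, so the comparison shares the run with the treatment. It also shares its CpG 3 h arrays with the comparison to untreated spleens.

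Cish, the first SOCS gene described as a cytokine-induced SH2 protein, is a target of STAT5 and feeds back on receptors such as those for interleukin-2 and erythropoietin. It lies at chr9:107296659-107302784. Its untreated arrays ran from -0.42 to 0.40 around a median of -0.09. At 3 h after CpG ODN they read 0.33, 0.59, 0.58 and 0.29, and the difference of 0.49 ± 0.20 was not called (adjusted p = 0.108). The lowest CpG mean came at 7 days, with values of -0.74, -0.98, -0.60 and -0.64, all below every untreated array (-0.70 ± 0.20, adjusted p = 0.0117). Without CpG 7 day replicate 2 the difference was -0.62 and its adjusted p 0.0527, the largest over its 23 alternatives. At 72 h the values of -0.52, -0.23, -0.91 and -0.58 gave a difference of similar size that was not called (-0.52 ± 0.20, adjusted p = 0.0656), and that passed without untreated replicate 1 (-0.60, adjusted p = 0.0417). By 14 days Cish read -0.42, -0.18, -0.15 and 0.17 and was 0.60 ± 0.21 above its 7 day level (adjusted p = 0.0417, 21.5% of genes called in that step). That return lost its call in 7 of the 8 leave-outs, without any of the 7 day arrays or 14 day replicate 2, 3 or 4 (0.49 to 0.64, adjusted p from 0.0519 to 0.14), and in the fit of that run alone (adjusted p = 0.068); over its 23 alternatives the adjusted p ran from 0.0108 to 0.328.

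Socs2 feeds back on the growth hormone receptor and, like Cish, is a STAT5 target. It lies at chr10:95383903-95417321. Its course differed from that of Socs1 and Socs3 in having a low phase. Untreated arrays ran from -0.85 to -0.14 with a median of -0.43. At 3 h the 3 CpG arrays with a value read 0.58, 0.16 and -0.30, a difference of 0.60 ± 0.21 that was not called (adjusted p = 0.0614) but passed without untreated replicate 4 (0.66, adjusted p = 0.043). At 9 h they read 0.28, 0.37, 0.04 and 0.56, all above every untreated array, and Socs2 was 0.76 ± 0.19 higher (1.70-fold, adjusted p = 0.00749). At 5 days it was lower than in untreated spleens, at -1.34, -1.01, -0.50 and -1.43 (-0.62 ± 0.19, adjusted p = 0.0142). Replicate 3 lay within the untreated range, and the call was lost without CpG 5 day replicate 1 (-0.53, adjusted p = 0.0588) or 4 (-0.50, adjusted p = 0.0758), within a range from 0.00281 to 0.0758 over its 22 alternatives. The means at 7 days (-0.96 ± 0.21, SD, n = 4) and 14 days (-0.88 ± 0.09) were also low, with differences from untreated spleens of -0.51 ± 0.19 and -0.43 ± 0.19 (SE) that were not called. The one at 7 days passed without untreated replicate 1 (-0.59, adjusted p = 0.0417). At 9 days the mean was -0.42, with replicate 3 at -1.03 and the others between -0.31 and -0.11.

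Lymphocyte genes were low at 5 and 7 days. At 5 days, when 13.4% of all genes were called lower and 17.5% higher, 8 of 10 T cell genes were lower and 1 higher, and 5 of 9 B cell genes were lower. At 7 days, with 6.89% of genes lower and 8.68% higher, the counts were 6 of 10 T cell and 4 of 9 B cell genes lower and none higher. The mean of the T cell list ran from 0.80 to 1.05 at 5 days, from 1.13 to 1.25 at 7 days and from 1.49 to 2.03 in untreated spleens, without overlap. Averaged over arrays, this list was at 1.25 at 72 h and 1.80 at 14 days, against 1.82 in untreated spleens. Socs2 was at -0.64 and -0.88 at these times, against -0.45 untreated. At 5 days, where the T cell list was lowest, Cish was at -0.01 against -0.04 in untreated spleens. Neutrophil genes were called higher at every CpG time, from 4 of 13 at 3 h to 11 at 9 days and 12 at 14 days, where 2.77% of genes were higher and 1.77% lower. In whole spleen, fewer cells of a type and less RNA per cell cannot be told apart, and the part of these cell types in the low Socs2 and Cish values was not tested.

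**Figure D3:**
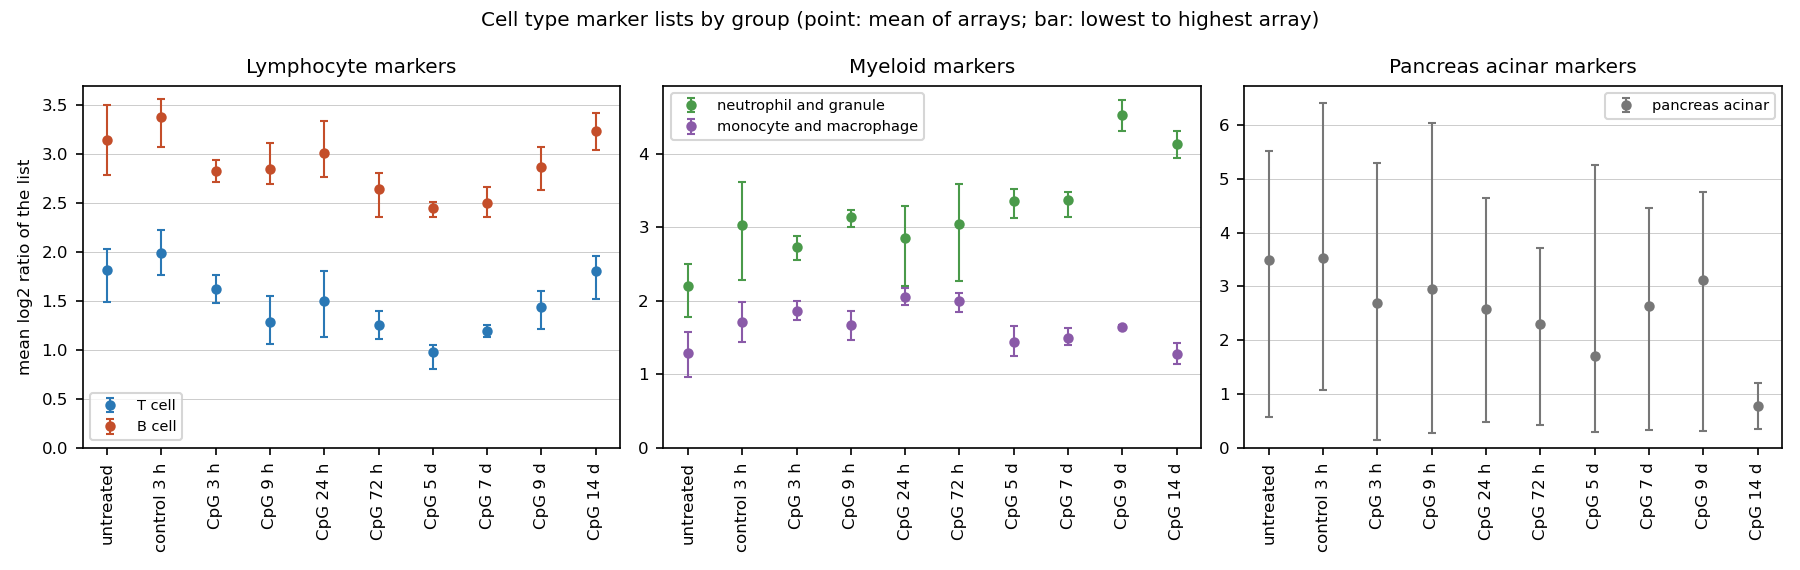
Mean log2 ratio of marker lists by group, with the lowest and highest array as the bar. T cell genes are lowest at 5 days (0.80 to 1.05 against 1.49 to 2.03 in untreated spleens), neutrophil genes are highest at 9 and 14 days, and acinar genes vary widely within all groups but 14 days.

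Socs4, a less studied member linked to signalling of the EGF receptor, lies at chr14:47276920-47296102. Its only called difference from untreated spleens came at 5 days, and none was called at 3 or 9 h. Untreated arrays ran from 0.72 to 1.36 with a median of 0.95. At 9 h the CpG arrays read 0.57, 0.65, 0.69 and 0.62, and the difference of -0.38 ± 0.17 was not called (adjusted p = 0.183). At 5 days, when 17.5% of all genes were called higher, the CpG arrays read 1.27, 1.68, 1.68 and 1.80. This rise of 0.59 ± 0.17 was called by limma (1.51-fold, adjusted p = 0.00711), with replicate 1 within the untreated range. This call held with each array left out in turn, but without the arrays that had over 1000 missing values, which left 2 CpG arrays at 5 days, the difference was 0.43 and its adjusted p 0.2, within a range from 0.000461 to 0.2 over 23 alternatives. Between 7 and 14 days Socs4 fell by 0.58 ± 0.18 (adjusted p = 0.0221), from 1.26 to 1.54 down to 0.63 to 1.09. That step was lost without CpG 7 day replicate 2 or CpG 14 day replicate 2 or 4 (-0.54 to -0.52, adjusted p from 0.0625 to 0.0748), in the fit of that run alone (-0.58, adjusted p = 0.0502) and without the arrays that had over 1000 missing values (-0.44, adjusted p = 0.288). Over all its alternatives the adjusted p ran from 0.00556 to 0.288. Its paired features correlated at 0.688 over 41 arrays.

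Socs5 has been linked to the interleukin-4 and EGF receptors, and Socs6 and Socs7 to insulin and growth factor signalling. Socs5 lies at chr17:87107278-87137647 and Socs7 at chr11:97362292-97398542. None of these genes followed the early course of Socs1 and Socs3. For Socs7 the group means ran over 0.25 in all, close to the mean SD within groups of 0.20. At 3 h the differences from untreated spleens were 0.17 ± 0.14 for Socs6 (95% interval -0.11 to 0.45) and 0.12 ± 0.14 for Socs7 (-0.16 to 0.41), so a rise of the size of Socs1 lies outside both intervals. Socs6 was lowest at 9 days, at -0.90, -0.72, -0.88 and -0.85, and the difference of -0.29 ± 0.14 was not called (adjusted p = 0.17). Socs5 was called once, at 14 days, with values of -1.06, -1.53, -0.94 and -0.60 against -0.92 to -0.20 in untreated spleens (-0.59 ± 0.18, adjusted p = 0.0467). Leaving out CpG 14 day replicate 1, 2 or 3 or untreated replicate 1, 2, 3 or 4 ended that call (-0.62 to -0.42, adjusted p from 0.0558 to 0.243).

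The values of these 3 members also depend on which feature is read. The paired features correlated at -0.287 over 41 arrays for Socs5, -0.134 over 42 for Socs6 and 0.014 over 40 for Socs7. For Socs5 they disagreed in sign. Tested alone, feature 1 was lower at 3 h (-0.59 ± 0.17, adjusted p = 0.0168), 5 days (-0.54 ± 0.17, adjusted p = 0.0141) and 7 days (-0.65 ± 0.17, adjusted p = 0.0069), while feature 2 had differences of 0.33 ± 0.29, 0.24 ± 0.29 and 0.15 ± 0.29 at the same times. Between CpG and control ODN at 3 h both features were called, in opposite directions: -0.83 ± 0.18 (adjusted p = 0.00118) and 0.90 ± 0.31 (adjusted p = 0.0384). Their mean, the value used for the gene, differed by 0.03 ± 0.19 there. At 14 days neither feature was called alone, at -0.32 ± 0.17 and -0.85 ± 0.29.

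**Figure D4:**
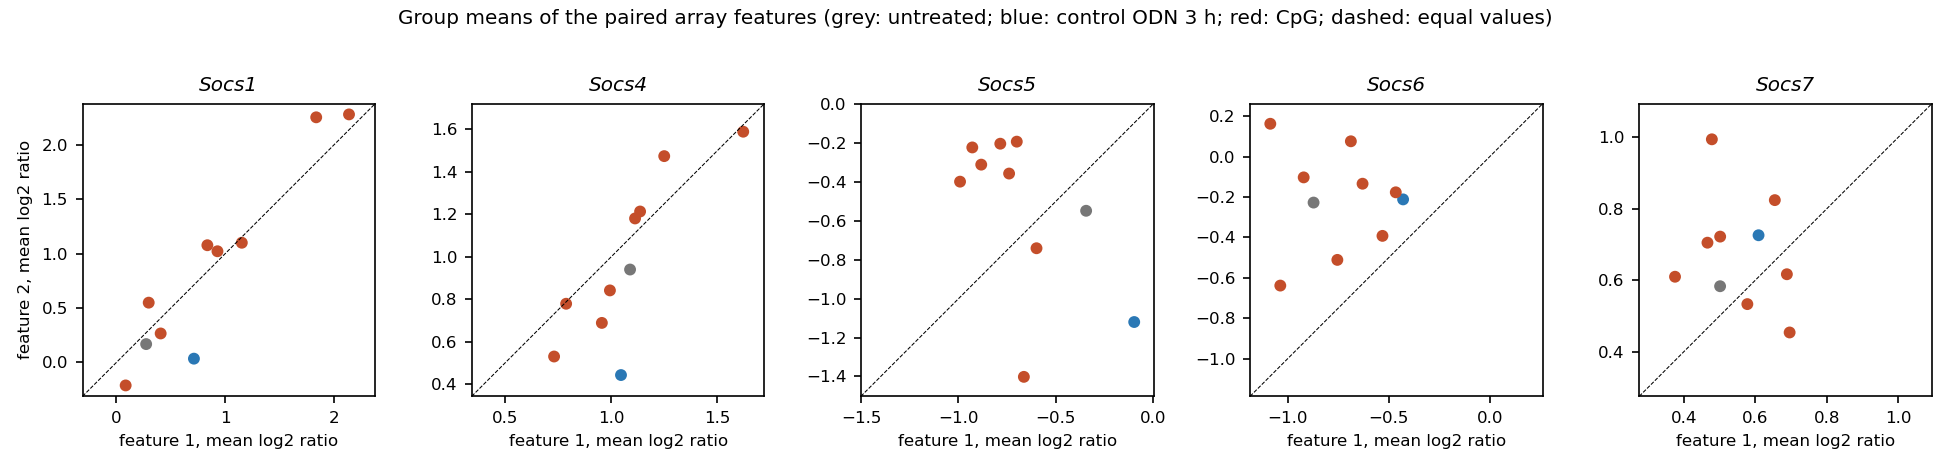
Group mean log2 ratio of the first against the second array feature for the 5 members with a pair of features; the dashed line marks equal values. Points of Socs1 and Socs4 rise along the line, whereas those of Socs5, Socs6 and Socs7 do not (correlations over arrays of 0.802, 0.688, -0.287, -0.134 and 0.014).

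The genes whose 10 group means most resembled those of the members were searched among 12333 genes, and the correlations describe points that share arrays and groups. Each gene named was picked for its likeness, so the highs and lows that it shares with a member follow from that choice. Nearest to Socs1 were Trafd1 (r = 0.980), Mgat4c (0.973) and Apol10b (0.969). Trafd1 went from 0.66 in untreated spleens to 2.47 at 3 h, 2.09 at 9 h and 0.73 at 7 days. Nearest to Socs3, a search added after the values were seen, were Slc15a3 (0.988), a lysosomal peptide transporter, Daxx (0.986) and Tubb6 (0.981), all with a higher mean after control ODN than in untreated spleens. Slc15a3 read 0.36 untreated, 1.30 with control ODN and 2.56 with CpG ODN at 3 h. Socs2 was followed most closely by Ccl5 (0.964), a chemokine gene of T and NK cells, whose mean was highest at 9 h (2.49) and lowest at 5 days (0.88), as for Socs2. Tspan3 (0.951) and Cadm4 (0.947) came next. Nearest to Socs4 were H2az2 (0.978), a histone variant gene, Msantd1 (0.972) and Fancl (0.966), a subunit of the Fanconi anaemia ubiquitin ligase, each highest at 5 days. Cish was followed by Wdr24 (0.955), Pkdcc (0.947) and Kank3 (0.947).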

How the data were processed

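RNA of 42 spleens (10 groups) was hybridised against a reference RNA on 2-colour arrays. The authors deposited 1 log2 ratio per feature and array; the log base and the direction (spleen over reference) were inferred from the values, and neither the spot filter nor how ratios were normalized is given in the sources used here. Array medians ran from -0.014 to 0.019. Features with 1 gene symbol (23485) were averaged to 15277 genes. Symbols were updated through RefSeq (GRCm38.p6).

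A single limma model (version 3.58.1, R 4.3.3) held all arrays, with each group as a coefficient. A gene was tested with at least 3 arrays per group and called at a Benjamini-Hochberg adjusted p below 0.05 over all genes tested in a comparison, 2-sided. Runs join arrays whose database numbers lie within 12 of the next. Named genes were all members and, per pathway list, up to 3 called genes with the largest difference at 3 h after CpG ODN. Up to 2 were named in any other comparison described. The 3 genes nearest in group means to each member called by the F test were also named. The number of arrays limits the precision; signal over background was not used here. Alternatives changed scaling, filters, features, spread, weights, thresholds, blocks and arrays. Fits were tested on simulated data. Members and lists were chosen with earlier results of these data known. Figures were drawn with matplotlib 3.10.9.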

Additional observations from a re-analysis of the deposited data

Results flagged for a closer look

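In 4 of 78 member and group sets of 4 to 6 arrays, 1 array stood apart from the rest of its group by Dixon's criterion, which chance meets in about 1 of 20 groups. They were Socs1 at 24 h, with replicate 4 at 0.76 below the others, Socs3 at 72 h, with replicate 4 at -2.11, Socs4 at 72 h, with the same array at 0.65, and Socs5 at 5 days, with replicate 1 at -0.29 above the others. The 72 h replicate 4 array was thus low for 2 members, and also lowest of its group for Socs2 and Socs7.

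Differences between CpG times were called for Socs3 from 3 to 9 h (-1.18) and from 9 to 24 h (-0.97), for Socs1 from 9 to 24 h (-0.92) and from 72 h to 7 days (-1.09), and from 7 to 14 days for Socs4 (-0.58) and Cish (0.60).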

How the results depend on the processing

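With the features of a gene averaged, no difference of a member that was called under any setting changed sign under another, whereas single features of Socs5 were called in opposite directions for CpG against control ODN (-0.83 and 0.90). Of 2508 values under alternatives 2285 kept their direction and side of the threshold, 99 lost a call, 33 gained 1 and 91 changed sign without a call on either side. The count of called members for control ODN against untreated was 2 as reported (0 to 3 with an array left out; 1 with quantile normalization or with genes present on all arrays; 0 at an adjusted p below 0.01, with a minimum difference of 1, with the 2 groups alone, with the replicate block, with the run as a random block and without arrays with over 1000 missing values). With an array left out the counts ran from 2 to 3 at 3 h, 1 to 3 at 72 h, 2 to 3 at 5 days, 0 to 2 at 7 days, 0 to 1 at 14 days, 2 to 3 for CpG against control ODN, 0 to 1 from 3 to 9 h, 1 to 2 from 9 to 24 h, 1 to 2 from 72 h to 7 days and 0 to 3 from 7 to 14 days. Genes present on all arrays, which leaves out Socs2 and Socs3, gave 1 at 3, 9 and 24 h, for CpG against control ODN and from 9 to 24 h, and 0 from 3 to 9 h. Array weights gave 4 at 3 h, 5 at 72 h, 3 at 7 days, 1 from 9 to 24 h and 2 from 72 h to 7 days. Quantile normalization gave 3 at 72 h and 0 at 14 days. A minimum difference of 1 gave 1 at 24 h and 0 at 72 h, 5, 7 and 14 days, from 9 to 24 h and from 7 to 14 days. An adjusted p below 0.01 gave 0 at 7 and 14 days, from 3 to 9 h and from 7 to 14 days, and 1 from 9 to 24 h. The 2 groups alone gave 2 at 72 h and 7 days, 0 at 14 days, from 3 to 9 h and from 9 to 24 h. Single features, where a member counts only if all its tested features are called 1 way, gave 0 at 72 h and 14 days and 1 from 9 to 24 h and from 7 to 14 days. The run as a fixed block gave 1 at 3 and 9 h, 0 at 24 h, 0 from 3 to 9 h, 1 from 9 to 24 h and 0 from 7 to 14 days on genes present on all arrays; on all genes of the arrays fitted it gave 1 at 9 h, 0 at 24 h and from 3 to 9 h, 1 from 9 to 24 h and 0 from 7 to 14 days. As a random block the run gave 0 at 14 days. Without arrays with over 1000 missing values the counts were 1 at 5 days, 0 at 14 days, 1 from 9 to 24 h and 0 from 7 to 14 days. That last setting, Socs1 from its complete feature and the fixed block on all genes of the arrays fitted were chosen after seeing the data. The causes of these changes were not tested.

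Same-numbered arrays of different groups correlated at 0.041 on average over 180 pairs, with 63 over 0.1. For the 612 other pairs the average was -0.012, with 167 over 0.1. Group means were subtracted first, which ties the 2 averages to each other. They therefore cannot decide whether the numbers pair the samples. With the replicate block the count from 72 h to 7 days was 2 and that of control ODN 0, and it left the other counts within 1.5 times of the main ones.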
